A study of Capra hircus with 2 samples.

Results

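The bovine-lineage miRNAs of the goat endometrium were taken as the known miRNAs listed under a cattle name (prefix bta-miR-) from miR-2284 to miR-2904, with miR-2478 and miR-2887 left out, and a name listed more than once was counted once. The rule took 52 names of the 587 known names, or of 1208 names when predicted candidates were included. Of these, 34 names were miR-2284 or miR-2285 names (here the family) and 18 carried other numbers. A suffix in a name gives the difference from the cattle reference miRNA, with L and R for bases gained or lost at the 5′ and the 3′ end and ss for a substitution.

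Endometrium was compared between the pre-receptive phase (P, gestational day 5) and the receptive phase (R, gestational day 15), the time when the goat uterus becomes ready for the embryo. All animals were multiparous Xinong Saanen dairy goats of 24 months after synchronised estrus and natural mating, and 10 goats were collected on each day. Each phase was represented by 1 small RNA library made from the RNA of 9 goats, mixed into 3 samples and sequenced 3 times, and each library was given as 1 value per miRNA, so there were no replicates. Over all listed miRNAs the depth was 1912361.5 reads for R and 4050349.2 for P, and because only miRNAs were listed, the tissue was checked against miRNAs known from its cell types and not against marker genes.

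MicroRNAs guide Argonaute proteins to messenger RNAs, mainly through the seed near their 5′ end, so a mature form that begins a base earlier or later carries a different seed. The miR-2284 and miR-2285 family is known as a large group of related miRNAs with many genomic copies in cattle. Each miRNA is cut from 1 arm of a hairpin whose arms pair with each other.

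The sequences below are those of the members that the results turn on, 5′ to 3′, with the seed (bases 2 to 8) in capitals. They comprise the most abundant family member and a form of it that begins 1 base later, the family members called different between the libraries, the most abundant miR-2285 members and the member found with most reads in R alone.
bta-miR-2284x_R+1: tGAAAAGTtcgttcgggttttt
bta-miR-2284x_L-1R+2: gAAAAGTTcgttcgggtttttt
bta-miR-2284ab: tAAAAGTTtggttgggttttt
bta-miR-2284d_L-1R+1_1ss10GA: aAAAGTTCattagggtttttct
bta-miR-2285f: aAAACCTGaatgaactttttgg
bta-miR-2285f_L+1R-1: aAAAACCTgaatgaactttttg
bta-miR-2285r_R-2: aGAAACCTggatgaacttttt
bta-miR-2285o_R+3: aAACCCGAacgaacttttgggct
bta-miR-2285l_1ss23CA: aAAACCCGcatgaactttttgga

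The members with other numbers share no such common pattern, and the sequences of their 3 most abundant members by mean level and of their 1 called member show this.
bta-miR-2411-3p_L-2_1ss25CT: tGAACTGTcttactcccacatct
bta-miR-2424_L-2: aTCTTTGGtaatctgatggct
bta-miR-2483-5p_L+2R-2: tCCGTCAAccatccagctgttt
bta-miR-2427_L+1R-1: tAGGTCATttcaaagagggct

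The 34 family names stood for 33 sequences, since bta-miR-2284y and bta-miR-2284x_L-2R+2 were listed with the same one. Family sequences were 18 to 23 nt long, and their median GC content was 33.3%, beside 45.5% over the 554 known sequences and 48.8% over the 18 other members. Thus the family was rich in A and T, as runs of A in miR-2285 and runs of T at the 3′ end of miR-2284 show in the sequences above. The family held 18 different seeds, 7 among miR-2284 names and 11 among miR-2285 names, and 0 of them were found under both numbers. The 18 other members held 18 different seeds, so no seed group was formed among them.

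Most family members differed from the cattle reference at their ends. The 5′ end was shifted in 21 of 34 family names and the 3′ end in 25, while 15 names carried a substitution and 3 were identical with the reference. As a result 11 of 34 family names kept the seed of the cattle reference, against 7 of the 18 others. These are counts of names, not of reads. The most abundant member, bta-miR-2284x_R+1, kept the reference seed and held 84.4% of the family's reads in R and 89.2% in P. A shift is counted from the reference in the name, so bta-miR-2284x_L-2R+2 counts as shifted although its sequence is the cattle reference of bta-miR-2284y. The 1-base shift between bta-miR-2284x_R+1 and bta-miR-2284x_L-1R+2 is visible above as the change of seed from GAAAAGT to AAAAGTT.

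The miR-2285 sequences resembled the reverse complement of the miR-2284 sequences. Each of the 16 miR-2285 sequences shared at least 16 bases with the reverse complement of a miR-2284 sequence in an ungapped alignment, with a best match of 16 to 20 bases and a median of 18. On the same strand their best matches were 10 to 13 bases, with a median of 11. For the 531 known names outside the miR-2284 and miR-2285 members and their hairpin arms, the best match with the reverse complement of miR-2284 reached at most 13 bases, with a median of 9. The closest pair was bta-miR-2285e_L+1R-1 and bta-miR-2284c_L+1_1ss14TC, with 20 identical bases, and 15 of the 16 miR-2285 sequences matched bta-miR-2284x_R+1 in this way at 16 bases or more. The likeness can be read from the reverse complement of the most abundant miR-2284 member beside the miR-2285 sequences above.
reverse complement of bta-miR-2284x_R+1: aaaaacccgaacgaacttttca

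**Figure D1:**
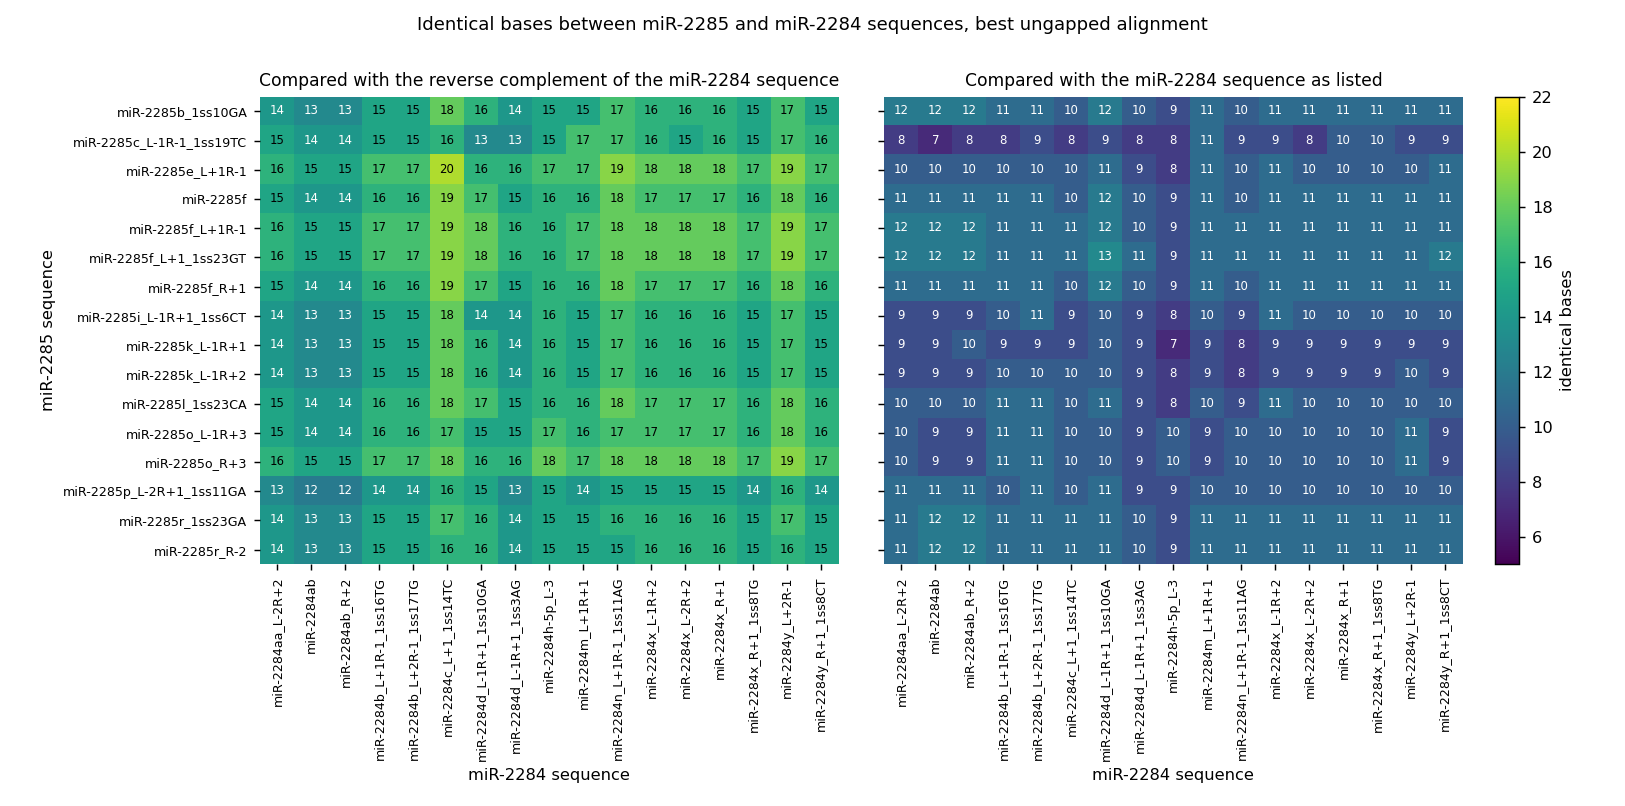
Number of identical bases in the best ungapped alignment of each of the 16 miR-2285 sequences (rows) with each of the 17 miR-2284 sequences (columns; bta-miR-2284y is not shown because bta-miR-2284x_L-2R+2 has the same sequence), compared on the same strand and with the reverse complement. The best match of each miR-2285 sequence was 10 to 13 bases on the same strand and 16 to 20 bases with the reverse complement.

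In a list of species made by the authors, miR-2284 and miR-2285 hairpins stood in the cow row alone among 23 species, where they were 69 of 295 hairpins (23.4%). Hairpins with the other numbers stood in the cow row as well, but 4 of these numbers also had a hairpin elsewhere: miR-2483, miR-2366 and miR-2411 in the pig and miR-2424 in the Chinese hamster. For all members, bovine-lineage describes the name and not the species that carry it, as every member was listed here from goat endometrium. The species list had no goat row and its sheep row held 74 hairpins, so it does not show which species carry the family. In the goat annotation of RefSeq (ARS1.2), 7 of 256 numbered miRNA symbols had a member's number, namely MIR2284A to MIR2284E, MIR2411 and MIR2483.

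Expression was given by the authors as a normalised signal (normalised expression, NE), in which 1 read was worth 0.860 NE in R and 1.16 NE in P. By contrast, the study's methods define NE as reads over the total of clean reads, times a fixed factor, by which a read would be worth 0.236 NE in R and 0.186 NE in P, so the values do not follow that formula and scaling to clean reads is the scaling it describes. Estimated reads (NE divided by the worth of 1 read) are given beside NE, with fractions where a read was divided among sequences. Where a name was listed more than once, NE is that of 1 entry while the reads are summed over its entries. Each log2 ratio is R to P and has an exact (Clopper-Pearson) 95% interval from the estimated reads. The interval covers counting error only, because each phase has 1 library and the spread between goats was not measured. PCR reads are not independent molecules, so the interval may be too narrow even for counting error. For a sum of names, NE counts a repeated name once while the interval comes from the reads of all its entries, and the log2 ratio of those reads on the NE scale is given where it differs by 0.05 or more. A name was tested when NE was above 0 in both libraries and at least 1 in 1 of them. It was called when the absolute log2 ratio was above 1 and P was under 0.05 in a two-sided Fisher's exact test against the rest of the clean reads, unadjusted. Fisher's test weighs a name's share of the clean reads and not its NE ratio, so an exact binomial test whose expectation follows the NE scale is given where it alters a call, for the leading member, for members of 1 library and where the tests fell on different sides of 0.05. Both tests compare 2 libraries, not the phases, and fewer cells of a type and less RNA per cell cannot be told apart in bulk tissue.

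The scaling between the libraries bears on every direction given here. Scaling to clean reads adds 0.78 to each log2 ratio and scaling to listed reads adds 1.52, which takes the median over all 564 names tested from −0.07 to 0.71 and 1.45.

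The miR-2284 and miR-2285 family was expressed in both phases and most of its signal came from 1 member. The family summed to 1330 NE in R (1560 estimated reads) and 2132 NE in P (1842 estimated reads). The log2 ratio of the sums was −0.68 (−0.77 to −0.58), but this direction turned to 0.10 with scaling to clean reads and to 0.84 with scaling to listed reads. As a share of the listed reads the family held 0.0816% in R (0.0776% to 0.0857%) and 0.0455% in P (0.0434% to 0.0476%). The family was therefore lower in R by NE and higher in R by its share of the listed reads.

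Known miRNAs of muscle and epithelium differed strongly between the libraries, by lists made after the values were seen. For muscle (miR-1, miR-133, miR-143, miR-145 and miR-206), 8 of 8 names tested were called lower in R, with a sum of 292575 NE in R against 1883190 NE in P (log2 ratio −2.69). Nearly all of this sum was aja-miR-143_1ss22GT (289634 NE in R and 1866270 NE in P, log2 ratio −2.69), so the sum followed this name. It held 17.6% of the listed reads in R and 39.6% in P, while miR-206 was not listed. Scaling to the listed reads without this name, an alternative added after its share was seen, turned the family sum to 0.39. For epithelium (miR-141, miR-200a, miR-200b, miR-200c and miR-429), 6 of 7 names tested were called higher in R, with a sum of 32080 NE in R against 6406 NE in P (log2 ratio 2.32), most of it hsa-miR-141-3p_R-1, while miR-200b was not listed. Among those called was hsa-miR-200a-5p. By stem-loop RT-qPCR, however, the study describes nearly equal levels of miR-200a in both phases, and in its discussion a pattern opposed to sequencing. For ciliated epithelium (miR-34b, miR-34c and miR-449a to miR-449c), 3 of 5 names tested were called higher in R, with a sum of 4872 NE in R against 1234 NE in P (log2 ratio 1.98). Of these hsa-miR-34c-5p was the most abundant, 3 miR-449 names were listed at 0 in P, and miR-449c was not listed. The study describes miR-449a as higher in R by RT-qPCR as well. The direction of each sum held under every scaling. These counts of calls are by NE, beside 18.3% of all names tested called higher and 7.09% lower. Of the muscle names, hsa-miR-143-5p_1ss22TA and hsa-miR-145-3p_L-2R+1 fell under 2-fold by clean reads (log2 ratios −0.49 and −0.84). By listed reads cfa-miR-145 (−0.90) fell under 2-fold too, and hsa-miR-143-5p_1ss22TA turned to 0.24. The part of cell types in the ratios of the members was not tested.

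The most abundant member was bta-miR-2284x_R+1, which ranked 76 among all names in R and 56 in P. It measured 1133 NE in R (1317.5 estimated reads) and 1911 NE in P (1643 estimated reads). Its log2 ratio was −0.75 (−0.86 to −0.65) with exact P = 1.40e-45 by the binomial test on the NE scale and exact P = 0.591 by Fisher's test on the share of clean reads, and turned to 0.029 by clean reads and 0.76 by listed reads. It held 84.4% of the family's reads in R (82.6% to 86.2%) and 89.2% in P (87.7% to 90.6%), so the family sum largely followed this member. Without it, the family summed to 197 NE in R and 221 NE in P, with a log2 ratio of −0.17 (−0.42 to 0.13) that is positive under both other scalings.

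Among the listed names, forms of the same length with 1 substitution from this sequence were rare. Forms with shifted ends, such as bta-miR-2284x_L-1R+2 with 30 estimated reads in R and 57.5 in P, are outside this count, and raw reads were not searched. There were 4 members of the same length that differed from bta-miR-2284x_R+1 by 1 base, chosen for description after their values were seen, with the differences C14T, C10T, T8G and T1C counted from 1 at its 5′ end. Together they had 1.5 estimated reads in R and 6.5 in P, equal to 0.114% and 0.396% of the reads of bta-miR-2284x_R+1. The next most abundant family value in either library was 66.9 NE, so the rest of the family lay far below the leading member.

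**Figure D2:**
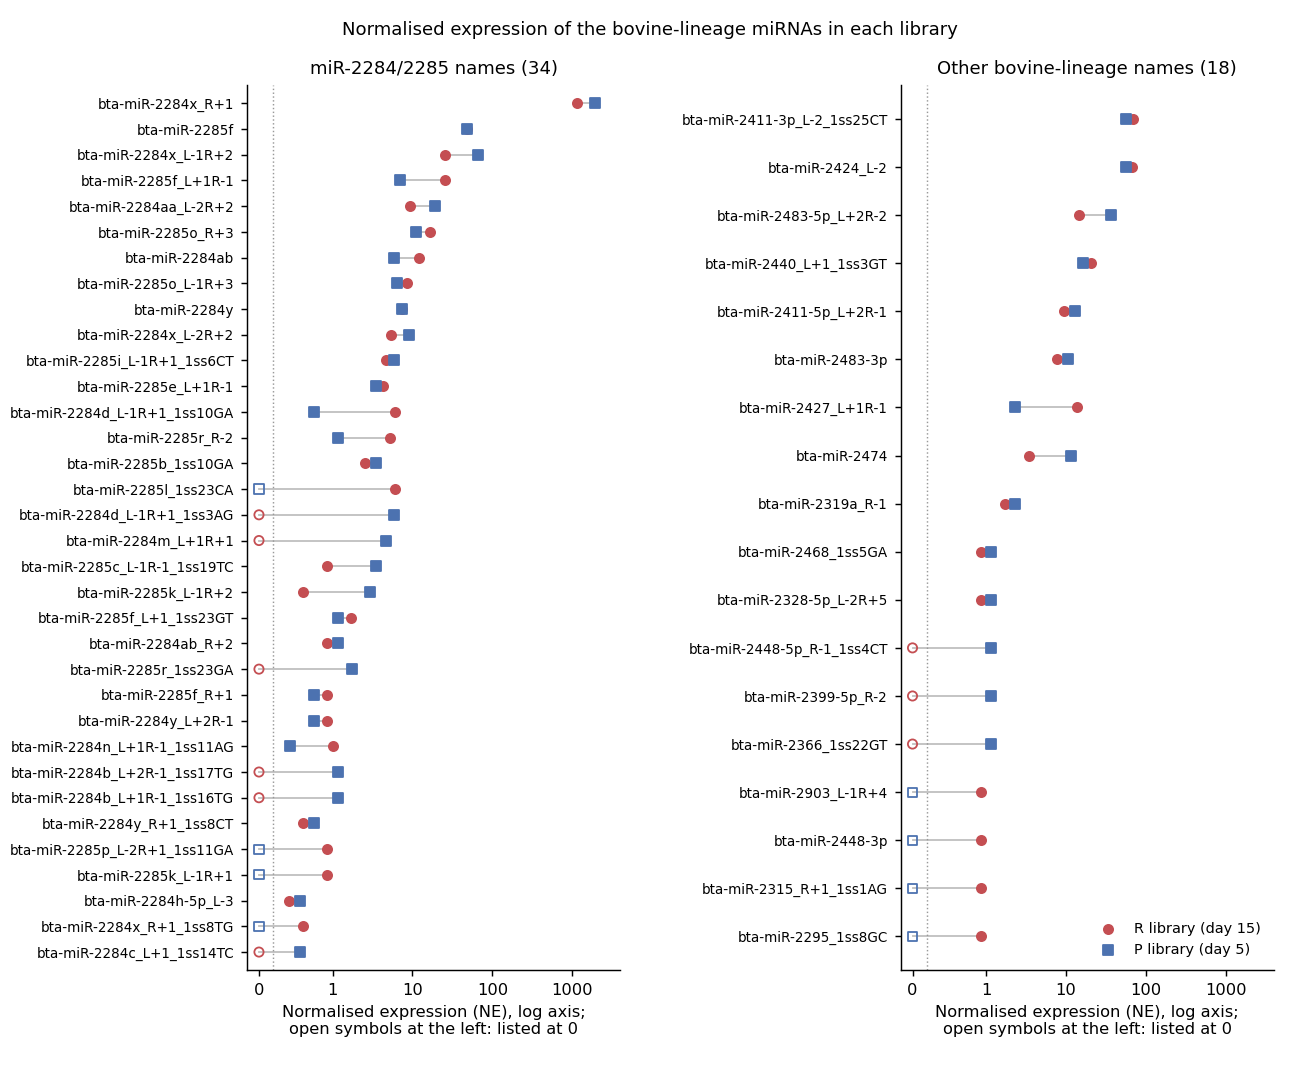
NE in the R and the P library (log axis) for each of the 34 miR-2284 and miR-2285 names and the 18 other names, with open symbols at the left for a library in which the name was listed at 0. bta-miR-2284x_R+1 stands apart at 1133 NE in R and 1911 NE in P, while the next highest family value was 66.9 NE; scaling to clean or listed reads turns the direction of bta-miR-2284x_R+1.

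Of the 34 family names, 24 were found in both libraries, 4 in R alone and 6 in P alone. The test could be applied to 20 names, and 4 names found in both libraries were below 1 NE in each. Among the 20 names tested, 4 were called higher in R and 0 lower, where 18.3% of all 564 names tested were called higher and 7.09% lower. These counts depend on the test and the scaling: the binomial test on the NE scale called 2 family names higher and 1 lower (14.5% and 9.75% of all names), and scaling to listed reads called 8 higher and 0 lower (52.0% and 1.77% of all names). Whatever the P-value, 5 of the 20 were over 2-fold higher and 4 over 2-fold lower, beside 22.9% and 18.1% of all names tested. The median log2 ratio of the 20 was −0.01 (range −2.76 to 3.37), beside −0.07 over all names tested, with 10 names above 0 and 10 below. The share called higher and the median lay close to those of all names, and 22 of the 34 family names had fewer than 10 estimated reads in both libraries together.

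Among miR-2284 names, 2 were called, neither with the seed of the most abundant member. bta-miR-2284d_L-1R+1_1ss10GA, listed for 2 entries whose reads were summed, measured 6.02 NE in R (14 estimated reads) and 0.581 NE in P (1 estimated read), a 10.4-fold difference with a log2 ratio of 3.37 (0.66 to 8.77) and exact P = 9.04e-05. bta-miR-2284ab measured 12.0 NE in R (14 estimated reads) and 5.81 NE in P (5 estimated reads), a 2.07-fold difference with a log2 ratio of 1.05 (−0.51 to 2.88) and exact P = 0.0106. The interval of bta-miR-2284d_L-1R+1_1ss10GA lay above 0, while that of bta-miR-2284ab held 0, its call was lost in the exact binomial test by NE (P = 0.171), and its log2 ratio was 0.94 with a pseudocount of 1 NE, under the limit for a call. The pseudocount lowered the log2 ratio of bta-miR-2284d_L-1R+1_1ss10GA to 2.15.

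The other abundant miR-2284 names were not called, with more NE in P than in R unless scaled to listed reads. bta-miR-2284x_L-1R+2, the form of the most abundant member that begins 1 base later, measured 25.8 NE in R (30 estimated reads) and 66.9 NE in P (57.5 estimated reads). Its log2 ratio was −1.37 (−2.07 to −0.73) with exact P = 0.0678 by Fisher's test, turning to 0.14 by listed reads. The binomial test on the NE scale gave exact P = 1.18e-05 and called it lower in R. bta-miR-2284aa_L-2R+2 measured 9.32 NE in R (10.8 estimated reads) and 19.3 NE in P (16.6 estimated reads), with a log2 ratio of −1.05 (−2.30 to 0.11) and exact P = 0.705, turning to 0.47 by listed reads. By estimated reads, too, both had more in P than in R.

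Among miR-2285 names, 2 were called higher in R. bta-miR-2285f_L+1R-1 measured 25.8 NE in R (30 estimated reads) and 6.98 NE in P (6 estimated reads), a 3.70-fold difference with a log2 ratio of 1.89 (0.60 to 3.44) and exact P = 1.78e-06. bta-miR-2285r_R-2 measured 5.16 NE in R (6 estimated reads) and 1.16 NE in P (1 estimated read), a 4.44-fold difference with a log2 ratio of 2.15 (−0.89 to 7.67) and exact P = 0.0489. The call of bta-miR-2285r_R-2 rested on 7 reads in all and was lost when P was adjusted over all names tested (exact P = 0.0967 after Benjamini-Hochberg adjustment) and in the exact binomial test by NE (P = 0.251), and its interval held 0. With a pseudocount of 1 NE the log2 ratios were 1.75 for bta-miR-2285f_L+1R-1 and 1.51 for bta-miR-2285r_R-2.

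The most abundant miR-2285 name was bta-miR-2285f, which has the same sequence as bta-miR-2285f_L+1R-1 but for 1 base at each end. It measured 48.3 NE in R (56.2 estimated reads) and 47.7 NE in P (41 estimated reads), with a log2 ratio of 0.02 (−0.59 to 0.63) and exact P = 0.0076. The 2 forms of miR-2285f thus had unlike ratios, and the difference between them was not tested. bta-miR-2285o_R+3 measured 16.3 NE in R (19 estimated reads) and 11.0 NE in P (9.5 estimated reads), with a log2 ratio of 0.56 (−0.57 to 1.97) and exact P = 0.0129. bta-miR-2285o_L-1R+3 measured 8.60 NE in R (10 estimated reads) and 6.40 NE in P (5.5 estimated reads), with a log2 ratio of 0.43 (−1.12 to 2.46) and exact P = 0.116. These 3 names had more reads in R than in P, and none passed the 2-fold limit by NE. By clean reads bta-miR-2285o_R+3 (1.35, then called) and bta-miR-2285o_L-1R+3 (1.21, not called) passed it, and by listed reads all 3 passed it and were called (1.54, 2.08 and 1.95 in the order named). The exact binomial test by NE gave P = 1.00 for bta-miR-2285f and P = 0.340 for bta-miR-2285o_R+3.

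Some family members were found in 1 library alone with at least 3 reads. bta-miR-2285l_1ss23CA measured 6.02 NE in R (7 estimated reads) and was listed at 0 in P, which is at least 1.73-fold higher in R against a floor of 3 reads (3.49 NE in P), with exact P = 0.0032 by Fisher's test and 0.0233 by the binomial test on the NE scale. In P alone, bta-miR-2284d_L-1R+1_1ss3AG measured 5.81 NE (5 estimated reads) against a listed 0 in R, at least 2.25-fold lower in R against the floor of 3 reads (2.58 NE in R), with exact P = 0.0139 by the binomial test on the NE scale and 0.0715 by Fisher's test. Likewise, bta-miR-2284m_L+1R+1 measured 4.65 NE in P (4 estimated reads) against a listed 0 in R, at least 1.80-fold lower in R, with exact P = 0.0327 by the binomial test and 0.136 by Fisher's test. Neither bound held with scaling to listed reads, where the ratios to the floor were 0.787 and 0.630, whereas that of bta-miR-2285l_1ss23CA held under each scaling. The bounds take the observed reads without their counting error. By the exact 95% interval the log2 ratio of NE was at least 0.09 for bta-miR-2285l_1ss23CA and at most −0.31 for bta-miR-2284d_L-1R+1_1ss3AG, while the upper limit for bta-miR-2284m_L+1R+1 was 0.16, so that interval held 0. For bta-miR-2285r_1ss23GA, with 1.74 NE in P (3 estimated reads, summed over 2 entries) and 0 in R, exact P was 0.261 by Fisher's test and 0.0768 by the binomial test, and no fold is given at the floor. The other 6 family names found in 1 library had fewer than 3 reads.

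**Figure D3:**
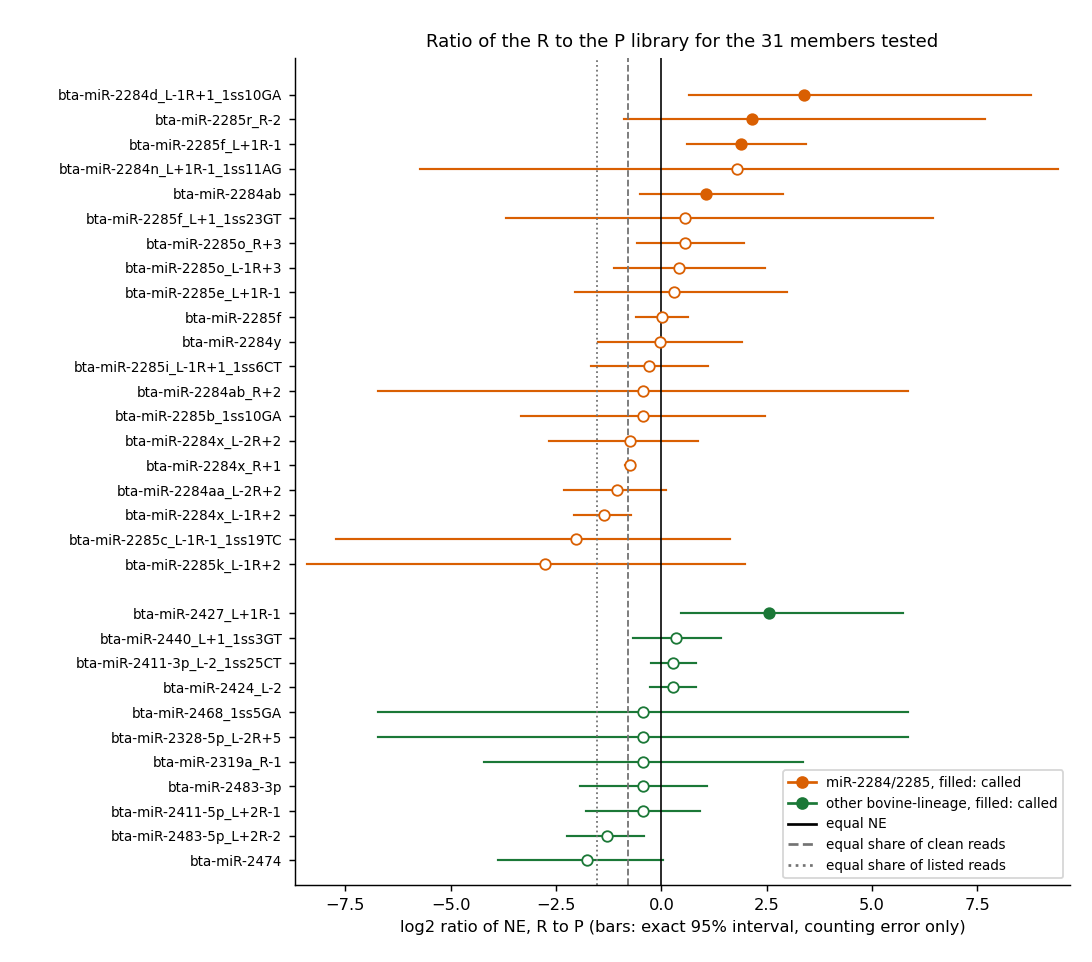
Log2 ratio of NE, R to P, with its exact 95% interval from estimated reads for the 31 members tested, filled where called; intervals are clipped at the ends of the axis, and the vertical lines mark equal NE, equal share of clean reads and equal share of listed reads. The 5 filled points lie right of equal NE with 3 intervals above 0, and bta-miR-2284x_R+1 at −0.75 lies left of equal NE but turns to 0.029 by clean reads and 0.76 by listed reads.

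Seed groups brought together forms of different names. The GAAAAGT group of 4 miR-2284 names, which includes bta-miR-2284x_R+1, had 1134 NE in R against 1917 NE in P. The AAAAGTT group of 4 miR-2284 names summed to 38.7 NE in R and 75.0 NE in P, and the AAAGTTC group of 4 names to 19.1 NE in R and 17.5 NE in P. Among miR-2285 names, the AAACCTG group of 3 names summed to 53.5 NE in R and 51.8 NE in P, and the AAAACCT group of 2 names to 27.5 NE in R against 8.14 NE in P. The AAAACCT group had a log2 ratio of 1.76 (0.55 to 3.18), nearly all of it from bta-miR-2285f_L+1R-1, whereas the GAAAAGT group had −0.76 (−0.86 to −0.65), which turns positive by clean reads. The remaining groups of 2 names had few reads. They were AAAGTTT (9.75 NE in R against 19.9 NE in P, log2 ratio −1.03, −2.30 to 0.11) and AACCGGA (1.29 against 2.91 NE, −1.17, −4.22 to 3.35), both positive by listed reads. The others were GAAACCT (5.16 against 2.91 NE, 0.83, reads 0.15, −1.93 to 2.42) and AAAAAGT (1.00 against 0.678 NE, 0.56, −6.73 to 5.86). The interval of GAAACCT belongs to the ratio of its reads, 6 in R and 4 in P.

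The balance between miR-2284 and miR-2285 does not depend on the scaling, because both come from the same library, and was chosen for description after the values were seen. The 18 miR-2284 names summed to 1203 NE in R and 2036 NE in P, a log2 ratio of −0.76 (−0.86 to −0.65) that turned to 0.02 by clean reads and 0.76 by listed reads. The 16 miR-2285 names summed to 127 NE in R and 95.9 NE in P, a log2 ratio of 0.41 (reads 0.35, −0.02 to 0.76). miR-2285 made up 9.91% of the family's reads in R (8.50% to 11.5%) and 4.86% in P (3.90% to 5.91%). The share of miR-2285 was thus higher in R, with a log2 ratio of the miR-2285 to miR-2284 ratios of 1.12 (0.72 to 1.53). Without bta-miR-2284x_R+1 the share was 63.7% in R (57.4% to 69.8%) and 45.0% in P (37.7% to 51.9%), and the log2 ratio of ratios was again 1.12 (0.54 to 1.70). miR-2285 therefore took a larger part of the family in the R library with and without the leading member, by counting error alone.

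The 18 other bovine-lineage names had similar sums in both libraries by NE. They summed to 212 NE in R (246 estimated reads) and 209 NE in P (180 estimated reads), with a log2 ratio of 0.02 (−0.27 to 0.30), moving to 0.80 by clean reads and 1.53 by listed reads. Of the 18 names, 11 were found in both libraries and tested, 4 were found in R alone and 3 in P alone, each of these 7 with 1 read. Among the 11 tested, 1 was called higher in R and 0 lower, beside 18.3% and 7.09% of all names tested, and the binomial test on the NE scale called 1 higher and 2 lower (14.5% and 9.75% of all names). With scaling to clean or to listed reads 4 were called higher and 0 lower, beside 31.9% and 3.90% of all names by clean reads and 52.0% and 1.77% by listed reads. Whatever the P-value, 1 was over 2-fold higher and 2 over 2-fold lower, beside 22.9% and 18.1% of all names. Their median log2 ratio was −0.44, with 4 names above 0 and 7 below, and 5 of the 11 had exactly this value because they had equal reads in both libraries. The direction of that median turned to 0.35 by clean reads and 1.08 by listed reads.

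The called member was bta-miR-2427_L+1R-1. It measured 13.8 NE in R (16 estimated reads) and 2.33 NE in P (2 estimated reads), a 5.92-fold difference with a log2 ratio of 2.56 (0.48 to 5.73; 2.15 with a pseudocount of 1 NE) and exact P = 0.000133. Its interval lay above 0 and its sequence, shown above, is not of the miR-2284 and miR-2285 kind.

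The most abundant of these members were bta-miR-2411-3p_L-2_1ss25CT and bta-miR-2424_L-2, which had nearly equal levels. bta-miR-2411-3p_L-2_1ss25CT measured 67.9 NE in R (79 estimated reads) and 55.8 NE in P (48 estimated reads), with a log2 ratio of 0.28 (−0.25 to 0.83) and exact P = 4.85e-05. bta-miR-2424_L-2 measured 67.1 NE in R (78 estimated reads) and 55.8 NE in P (48 estimated reads), with a log2 ratio of 0.26 (−0.27 to 0.81) and exact P = 6.73e-05. bta-miR-2440_L+1_1ss3GT measured 20.6 NE in R (24 estimated reads) and 16.3 NE in P (14 estimated reads), with a log2 ratio of 0.34 (−0.67 to 1.41) and exact P = 0.0214. For these 3 names the P-value was under 0.05 without a 2-fold difference in NE, and their log2 ratios passed 1 with scaling to clean reads (1.07, 1.05 and 1.12). In the order named, the exact binomial test by NE gave P = 0.324, 0.323 and 0.516.

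The arms of miR-2411 and of miR-2483 were both listed. bta-miR-2411-5p_L+2R-1 measured 9.46 NE in R and 12.8 NE in P (11 estimated reads in each library), with a log2 ratio of −0.44 (−1.78 to 0.91), turning to 0.35 by clean reads, and exact P = 0.669. bta-miR-2483-5p_L+2R-2 measured 14.6 NE in R (17 estimated reads) and 36.1 NE in P (31 estimated reads), with a log2 ratio of −1.30 (−2.25 to −0.40), turning to 0.22 by listed reads, and exact P = 0.248 by Fisher's test but 0.00306 by the binomial test on the NE scale, which called it lower in R. bta-miR-2483-3p measured 7.74 NE in R and 10.5 NE in P (9 estimated reads in each library), with a log2 ratio of −0.44 (−1.94 to 1.07), turning to 0.35 by clean reads, and exact P = 0.641. Thus the 3p arm was the more abundant one for miR-2411 and the 5p arm for miR-2483, in both libraries. bta-miR-2474 measured 3.44 NE in R (4 estimated reads) and 11.6 NE in P (10 estimated reads), with a log2 ratio of −1.76 (−3.88 to 0.04) and exact P = 0.291 by Fisher's test but 0.0328 by the binomial test, which called it lower in R, and kept its direction by clean reads (−0.97) and by listed reads (−0.24).

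**Figure D4:**
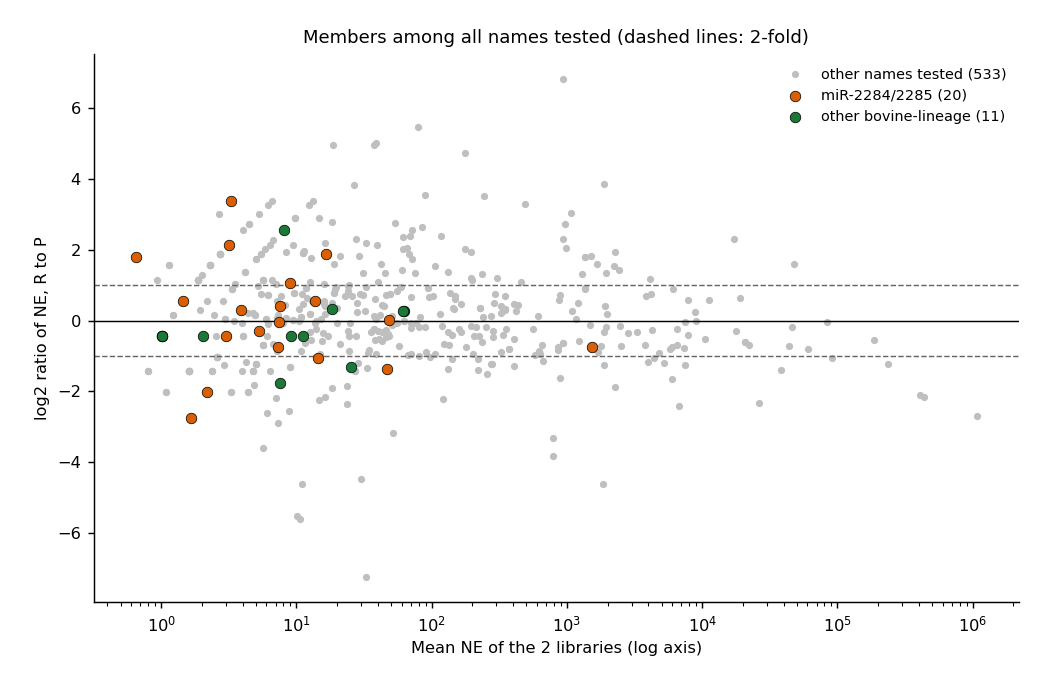
Log2 ratio of NE, R to P, against the mean NE of both libraries (log axis) for all 564 names tested, with the 20 miR-2284 and miR-2285 names and the 11 other bovine-lineage names marked and dashed lines at 2-fold. The medians were −0.01 for the family, −0.44 for the others and −0.07 for all names, and all 3 are positive with scaling to clean or listed reads.

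Sequences like those of the family were also listed outside the rule. The known table held 22 further arms of miR-2284 and miR-2285 hairpins under lower-case names (bta-mir-, with p5 or p3 for the arm), and each shared at least 16 bases with a family member. Among the 621 candidates, 57 (9.18%) shared at least 16 bases with a family member, while 14 shared 14 or 15 bases and the median over all candidates was 10. The sequences of the most abundant such arm, of a candidate that is the same but 1 base longer at the 3′ end, and of an arm called higher in R show the likeness to the miR-2284 sequences above.
bta-mir-2285m-3-p5_1ss1AG: gAAAGGTTcatttgggttttt
PC-5p-21385_42: gAAAGGTTcatttgggtttttt
bta-mir-2285o-3-p5_1ss12TC: aAAAATTTgttcgggtttttct

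The 22 arms together held far less signal than bta-miR-2284x_R+1. They summed to 113 NE in R (214 estimated reads) and 142 NE in P (221 estimated reads), a log2 ratio of −0.34 by NE that turned to 0.44 by clean reads and 1.18 by listed reads. The ratio of their summed reads on the NE scale, to which the interval belongs, was −0.48 (−0.76 to −0.20). Of the 22, 13 were found in both libraries, 7 in R alone and 2 in P alone, and of 12 tested 2 were called higher in R and 0 lower, beside 18.3% and 7.09% of all names tested. The binomial test on the NE scale, applied to these arms and to the candidates after their values were seen, called 1 arm higher and 1 lower (14.5% and 9.75% of all names). The largest was bta-mir-2285m-3-p5_1ss1AG with 53.7 NE in R (125 estimated reads) and 108 NE in P (186 estimated reads), a log2 ratio of −1.01 (−1.35 to −0.67), exact P = 0.189 by Fisher's test but 1.18e-09 by the binomial test, which called it lower in R, and its ratio turned to 0.51 by listed reads. This arm carried the direction of the sum, since the other 21 arms summed to 58.9 NE in R (89 estimated reads) and 34.3 NE in P (35 estimated reads), a log2 ratio of 0.78 (reads 0.91, 0.33 to 1.52), and the median of the 12 arms tested was 0.23. The arms called were bta-mir-2285o-3-p5_1ss12TC (9.46 NE in R and 2.33 NE in P, log2 ratio 2.02, 0.47 to 4.02, exact P = 3.04e-05) and bta-mir-2284z-4-p5_1ss1AG (9.46 NE in R and 4.65 NE in P, log2 ratio 1.02, −0.73 to 3.13, exact P = 0.0341). The interval of bta-mir-2284z-4-p5_1ss1AG held 0 and its call was lost after adjustment over all names tested (exact P = 0.0702) and by the binomial test (P = 0.298). With the arms added, 6 of 32 family names tested were called higher in R and 0 lower by unadjusted P, close to the 18.3% higher of all names tested (7.09% lower).

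The 57 candidates summed to 94.6 NE in R (161 estimated reads) and 136 NE in P (176 estimated reads), a log2 ratio of −0.52 (interval of the reads −0.88 to −0.25) that turned to 0.26 by clean reads and 0.99 by listed reads. Of these, 21 were found in both libraries, 18 in R alone and 18 in P alone, and among the 19 tested 1 was called higher in R and 2 lower, beside 18.3% and 7.09% of all names tested, while the binomial test on the NE scale called 0 higher and 3 lower (14.5% and 9.75% of all names). The candidate called higher was PC-5p-203577_2, with 10 estimated reads in R against 2 in P, a log2 ratio of 1.89 (−0.34 to 5.12), exact P = 0.00745 by Fisher's test and 0.0837 by the binomial test, so its interval held 0. Those called lower were PC-5p-104298_5, with 3 estimated reads in R against 13 in P (log2 ratio −2.55, −5.00 to −0.69, exact P = 0.0457), and PC-3p-61234_13, with 2 in R and 11 in P (log2 ratio −2.90, −6.11 to −0.70, exact P = 0.0486). Both lower calls were lost after adjustment of Fisher's P over all names tested (exact P = 0.0914 and 0.0967). The binomial test made both (exact P = 0.00199 and 0.00314) and added PC-5p-32617_26 (12 estimated reads in R against 22 in P, exact P = 0.0139). PC-3p-61234_13 is the member bta-miR-2285b_1ss10GA with 1 base more at the 3′ end. That member had 3 estimated reads in each library (log2 ratio −0.44) and was not called. Among the candidates, 5 contained a known sequence, PC-3p-61234_13 and PC-5p-32617_26 among them.

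The hairpin arm separated these relatives into the 2 kinds of sequence, a pattern chosen for description after it was seen. All 36 relatives from a 5p arm were closer to miR-2284, and all 43 from a 3p arm were closer to miR-2285, over the 22 arms and 57 candidates. The number in the hairpin's name did not decide this, since 14 arms on the 5p side of miR-2285 hairpins were closer to miR-2284 and 4 arms on the 3p side of miR-2284 hairpins were closer to miR-2285. The sequence of bta-mir-2285m-3-p5_1ss1AG above, with its run of T at the 3′ end, is of this kind. Arms and strands here are those in the names given by the authors, and hairpin sequences were not examined.

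**Figure D5:**
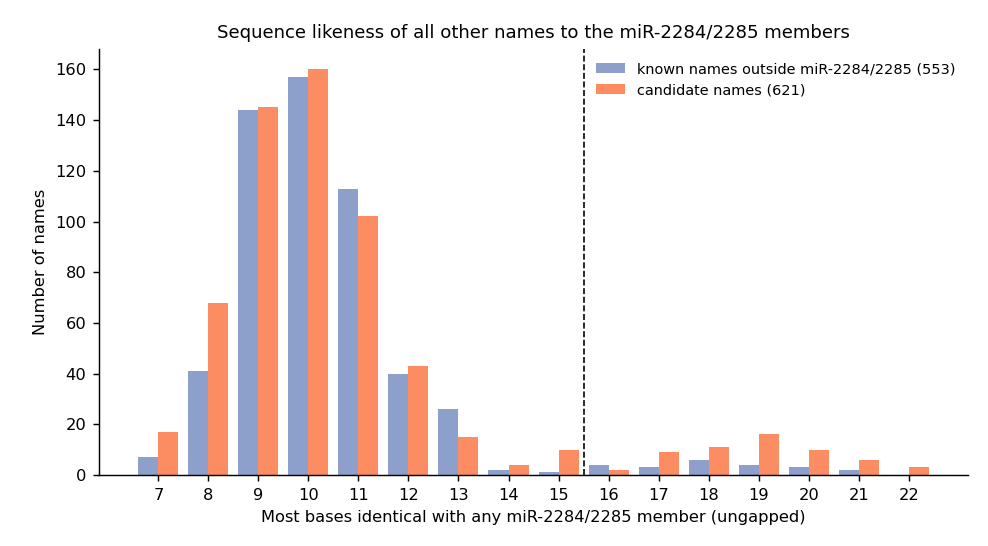
Number of names outside the miR-2284 and miR-2285 members (known names and candidates in separate bars) by the most bases identical with any family member in an ungapped alignment, with a dashed line at the threshold of 16 bases. The 22 lower-case arms and 57 candidates lie at 16 bases or more, and the median over candidates was 10.

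Predicted targets were listed by the authors for 142 names, among them the 5 called members. The lists held 561 identifiers for bta-miR-2284ab, 515 for bta-miR-2284d_L-1R+1_1ss10GA, 487 for bta-miR-2285f_L+1R-1, 634 for bta-miR-2285r_R-2 and 647 for bta-miR-2427_L+1R-1, beside a median of 578.5 over all 142 lists. Together they held 2120 identifiers, of which 1560 stood in 1 list only, 560 in at least 2 lists and 2 in all 5. The miR-2284 pair shared most, with 156 identifiers or 27.8% of the list of bta-miR-2284ab and 30.3% of that of bta-miR-2284d_L-1R+1_1ss10GA. The miR-2285 pair shared 91 identifiers, 18.7% of the list of bta-miR-2285f_L+1R-1 and 14.4% of that of bta-miR-2285r_R-2, and the shares of the other 8 pairs lay from 11.1% to 17.5% of a list. The median share over all pairs of names was 13.8%, so the miR-2284 pair lay above it and the rest near it. The arm bta-mir-2284z-4-p5_1ss1AG shared 180 identifiers with bta-miR-2284ab, 32.1% of the list of bta-miR-2284ab and 32.8% of its own, and 107 with bta-miR-2284d_L-1R+1_1ss10GA, 20.8% of that list and 19.5% of its own. The arms bta-mir-2285m-3-p5_1ss1AG and bta-mir-2285o-3-p5_1ss12TC, also closer to miR-2284, shared 15.5% and 13.4% of the list of bta-miR-2284ab (16.5% and 20.2% of their own). These are predictions from sequence, and no target was measured.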

How the data were processed

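Small RNA was measured in 1 library of the receptive (R) and 1 library of the pre-receptive (P) goat endometrium, each pooled from 9 goats. The authors kept reads of 18 to 26 nt, matched them to miRBase 20 and to the goat genome, and deposited for each known miRNA and candidate a normalised signal per library, which equals reads divided by 1 size factor per library. Values in the conservation and target tables deposited by the authors are of another kind, namely counts of names and identifiers, and were used only as lists. The fold and P columns of the authors' difference table hold their own comparison and were not used. In the candidate table the column labels were taken as reversed, since 70 of 70 candidate names shared with the difference table were equal within 0.006 NE under that assignment and 0 as labelled.

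Names were collapsed, with NE taken as listed and reads summed over entries. The design named a test on recovered reads. Reads were estimated as NE divided by the worth of 1 read, rounded for the test, and were whole numbers within 0.01 for 33 of 43 detected members in R and 32 of 44 in P. Fisher's exact test was run over all 564 tested names of the series, and the calls were tested on simulated data. A floor of 3 reads, 2.58 NE in R and 3.49 NE in P, was used for a library at 0. Members named in the text were, in each set, those called, the 8 with the highest mean NE and those found in 1 library alone with at least 3 reads. The relatives named were picked with their values in view. Lists of muscle and epithelium miRNAs were written from general knowledge after the values were seen and matched by name. The members and lists were chosen with earlier results of these data known.

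Sequences were those of the deposited tables, compared without gaps, with at least 16 identical bases taken as alike. Goat gene symbols were taken from RefSeq by name only, with no coordinates used. Alternatives were scaling to clean or listed reads, a pseudocount of 1 NE, at least 10 reads or no minimum NE, counting by sequence or by entry, adding the lower-case arms, an exact binomial test on the NE scale, Benjamini-Hochberg adjustment, and leaving out the most abundant member. The binomial test and the adjustment were applied to the arms and candidates outside the rule after their values were seen, and so was scaling of the sums to listed reads without the most abundant miRNA. Raw reads and hairpin sequences were not analysed here. The software was scipy 1.17.1, pandas 2.3.3 and numpy 2.4.6 under Python 3.11.15, with figures drawn in matplotlib 3.10.9.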

Additional observations from a re-analysis of the deposited data

Results flagged for a closer look

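The 57 candidates that share at least 16 bases with a miR-2284 or miR-2285 member are listed outside the known miRNAs, and this signal was noticed in a table that enters the comparison of the members only through the shares and the adjustment over all names tested. Their summed estimated reads were 161 for the R library and 176 for the P library, but the sum over many names says little of a single one. Taken singly, 12 candidates in R and 8 in P had more than 3 estimated reads, the limit that a count of 0 allows, and 33 of the 36 found in 1 library alone had at most 3. Whether they come from the same hairpins as the members was not tested.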

How the results depend on the processing

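Scaling to clean reads turned the log2 ratio of the family sum to 0.10, of bta-miR-2284x_R+1 to 0.029 and of bta-miR-2411-5p_L+2R-1 and bta-miR-2483-3p to 0.35. It moved the family median to 0.78, the sum of the others to 0.80 and their median to 0.35, and raised the others called higher to 4. Scaling to listed reads turned the family sum to 0.84, bta-miR-2284x_R+1 to 0.76, bta-miR-2284x_L-1R+2 to 0.14, bta-miR-2284aa_L-2R+2 to 0.47, bta-miR-2483-5p_L+2R-2 to 0.22 and bta-miR-2411-5p_L+2R-1 and bta-miR-2483-3p to 1.08. It moved the family median to 1.51, the sum of the others to 1.53 and their median to 1.08, with 8 family names and 4 others called higher. Listed reads without the most abundant listed miRNA, added after seeing the data, turned the family sum to 0.39 and moved the sum of the others to 1.08. These changes follow from the shift that each scaling adds. Over all names, 180 were called higher and 22 lower by clean reads, 293 and 10 by listed reads, 82 and 55 by the binomial test, and 94 and 34 with adjusted P, beside 103 and 40. The binomial test called 2 family names higher and 1 lower (bta-miR-2284x_L-1R+2), and 2 others lower (bta-miR-2474 and bta-miR-2483-5p_L+2R-2), since it compares on the NE scale. Tests added after seeing the data left 1 lower-case arm called higher with the binomial test and 1 with adjusted P, and called 1 lower with the binomial test, while of the candidates the binomial test called 0 higher and adjusted P left 0 lower. Without its most abundant member the family sum was −0.17. For the sums, medians and counts of both sets and the counts of relatives, 52 values under the alternatives lay within the main value's 95% interval or within 1.5 times the main count, 19 lay beyond, and the family sum turned sign under 3. The medians changed sign under 6 alternatives in all, 4 for the family (both scalings, 0.16 with each sequence counted once and 0.084 with the lower-case arms added) and 2 for the others (both scalings). Values for named members were counted under both scalings and the pseudocount only. Of these, 34 kept their direction and stayed called or uncalled, 10 became called, 1 lost its call (bta-miR-2284ab, 0.94 with a pseudocount) and 9 reversed. Outside this count, the binomial test removed the calls of bta-miR-2284ab and bta-miR-2285r_R-2, and adjusted P removed that of bta-miR-2285r_R-2. Of the 34, 6 of uncalled members fell under 2-fold and 1 passed 2-fold. Members found in 1 library alone have no ratio, and their bounds against the floor were 1.31, 1.05 and 2.97 by clean reads (bta-miR-2284d_L-1R+1_1ss3AG, bta-miR-2284m_L+1R+1 and bta-miR-2285l_1ss23CA). No paired analysis was possible because each phase has 1 library, the pools were not listed apart, and the replicate number 1 of both does not pair animals. Under 10 estimated reads lay 22 of 34 family names and 10 of 18 others, and of those tested 8 of 20 and 3 of 11, and the spread between goats was not measured.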
